A study of Rattus norvegicus with 6 samples.

Results

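Atf4 and 9 genes known as its targets in amino acid synthesis, transport and stress were followed across bulk RNA-seq of 6 rat mammary tumors. The genes were taken by symbol (Atf4, Ddit3, Asns, Chac1, Trib3, Phgdh, Psat1, Shmt2, Sesn2 and Slc7a11), each matched 1 row, and together they make up 10 of the 26195 named rows in the table of read counts. All 10 had enough reads to be tested. Of the tumors, 3 came from older F344 rats (tumors 102, 107 and 116) and 3 from younger F344 rats (tumors 157, 158 and 167), 1 library per tumor. Every rat carried a subcutaneous pellet with 50 mg of the progestin medroxyprogesterone acetate (MPA), which released for 90 days, and received the carcinogen DMBA once by gavage at 65 mg per kg. Older rats were 21 to 23 months old at dosing and younger rats 4 months old. Both groups were of the same inbred strain without any engineered allele, but they came from different sources. Older rats were obtained from colonies of the National Institute on Aging at 19 to 21 months of age. Younger rats were virgin and were bought from Envigo at 6 to 8 weeks of age. Age and source therefore cannot be told apart. By the study's methods, all tumors available from younger rats were sequenced, whereas those from older rats were taken for having enough tissue.

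ATF4 is a bZIP transcription factor that stands at the center of the integrated stress response. When cells lack amino acids, heme or folding capacity in the endoplasmic reticulum, kinases phosphorylate the translation factor eIF2 and most protein synthesis slows, while translation of the Atf4 message itself goes up. ATF4 then turns on genes that make, import and charge amino acids, together with regulators that limit growth or lead to cell death. Because that control acts largely on translation, the level of Atf4 mRNA need not follow the amount or activity of the protein, which was not measured here. Tumors draw on serine, glycine, asparagine and cystine while they grow, and several of these targets are studied in breast cancer for that reason.

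ATF4 acts with C/EBP family partners on a composite element whose core is TGATGNAA. This core was searched on both strands of the RefSeq promoters of assembly GRCr8, which span 250 bases before to 50 bases after each gene start, and the files were made on another assembly. Of all 33469 promoters, 3.98% held the core. Promoters were found for all 10 genes, and 2 of them held it, Chac1 and Trib3. Among the other genes of the pathway described further down, 17 of the 67 genes with a promoter sequence held it, 7 of them among 17 cytosolic tRNA synthetases. The windows below show these 2 genes and, for comparison, 6 others of the pathway lists. Each is written 5′ to 3′ so that the core, in capitals, reads in the same direction. The strand given is that of the printed letters, which is the strand opposite to the gene in all windows but that of Pycr1. Distances are those of the core's first base when read along the gene, which is the last printed base of the core in the opposite windows. The letters of the core are shared because the search required them, and only the letter at N was free. Matches that read TGATGAAA, in Slc7a1 and Aars1, are not shown.
Chac1, GRCr8 chr3:126795954-126795981, minus strand, core beginning 167 bases before the gene start: ctagcaggagTGATGCAAcggcggagaa
Trib3, GRCr8 chr3:161275537-161275564, plus strand, core beginning 21 bases before the gene start: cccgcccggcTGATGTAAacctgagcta
Nupr1, GRCr8 chr1:190645939-190645966, plus strand, core beginning 55 bases before the gene start: aagccctgtcTGATGCAAtctggccttt
Got1, GRCr8 chr1:252330021-252330048, plus strand, core beginning 167 bases before the gene start: gaggcttgtaTGATGCAAccaatgcagt
Herpud1, GRCr8 chr19:10614874-10614901, plus strand, core beginning 184 bases before the gene start: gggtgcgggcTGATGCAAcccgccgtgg
Pycr1, GRCr8 chr10:106420926-106420953, minus strand, core beginning 131 bases before the gene start: gtcctgtgtaTGATGCAAtgtacaaggc
Mars1, GRCr8 chr7:65023753-65023780, plus strand, core beginning 17 bases before the gene start: gagcccacgcTGATGCAAccggaacggg
Cars1, GRCr8 chr1:208225335-208225362, plus strand, core beginning 18 bases after the gene start: ttccagaatcTGATGCAAccgcggcgcc
In these lists 17 of the 20 matches read TGATGCAA, as in Chac1, whereas over all promoters 266 of 1364 matches did. A match of letters is not a measured binding site, and a promoter without a match lacks only these letters in this window.

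The tumors had total counts from 3508571 to 6525830, and levels are given as CPM (counts brought to a common depth, after scaling between libraries by edgeR's TMM factors of 0.861 to 1.127). A count of 3, taken as the floor, corresponds to between 0.530 and 1.03 CPM, which covers counting error only. Epithelial markers were abundant in every tumor, with Epcam lowest in tumor 107 at 300.02 CPM. Tumor 102 stood apart in marker levels, with proliferation markers summing to 149 CPM where the other 5 tumors ran from 674 to 1061, and with the highest sums of fibroblast (983 CPM) and adipocyte (176 CPM) markers. Tumor 167 had the lowest sums of milk protein (5621 CPM) and endothelial (69.4 CPM) markers. Its Csn2 level was 595 CPM, where the other 5 tumors ran from 7589 to 111356 CPM. Levels are compared for each gene between tumors and not between genes, because counts were not divided by transcript length. In bulk tissue, fewer cells of a type and less RNA per cell cannot be told apart.

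Sesn2 was the only one of the 10 genes whose age groups did not overlap. Sestrin 2, its product, senses leucine and holds back mTORC1, the growth kinase complex that amino acids switch on. Sesn2 was at 20.7, 24.1 and 28.4 CPM in tumors 102, 107 and 116 from older rats and at 71.8, 64.4 and 37.3 CPM in tumors 157, 158 and 167 from younger rats. Every tumor from an older rat lay below every tumor from a younger rat, with tumor 167 nearest to the older group. The older group had a mean of 24.4 ± 3.90 CPM (SD, n = 3) and the younger group 57.8 ± 18.2 CPM (SD, n = 3). On the log2 scale the difference was -1.24, with a standard error of 0.32 and a 95% interval from -1.98 to -0.51. The unadjusted p was 0.00477 and the adjusted p 0.322 over all genes tested (edgeR's quasi-likelihood F test, Benjamini-Hochberg), so the difference did not pass 0.05. With DESeq2's Wald test, the tool the study's methods name, the adjusted p was 0.0389. Fits on 5 of the 6 tumors gave log2 fold changes from -1.48 to -1.06 and unadjusted p-values from 0.00118 to 0.0212 (edgeR). Tumors of the age groups also differed in marker levels beside Sesn2. The summed level of the 4 epithelial markers with a row was 1138 to 1229 CPM in tumors from older rats and 1479 to 1731 CPM in tumors from younger rats, and that of 6 macrophage markers 176 to 310.02 and 87.4 to 140 CPM. For T cell markers the sums were 6.54 to 14.8 and 2.89 to 5.68 CPM, and for B and plasma cell markers 4.55 to 22.03 and 1.73 to 4.16 CPM, with Ms4a1 and Cd79b at 0 counts throughout. Adipocyte sums were 20.02 to 176 and 6.17 to 18.03 CPM. The sums of milk protein, proliferation, fibroblast, endothelial and skeletal muscle markers overlapped between age groups. By single gene, the groups did not overlap for 2 of 4 tested epithelial, 2 of 6 macrophage and 0 of 3 adipocyte markers. Over all genes tested this share was 12.1%. The part of these marker levels in the Sesn2 difference was not tested.

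**Figure D1:**
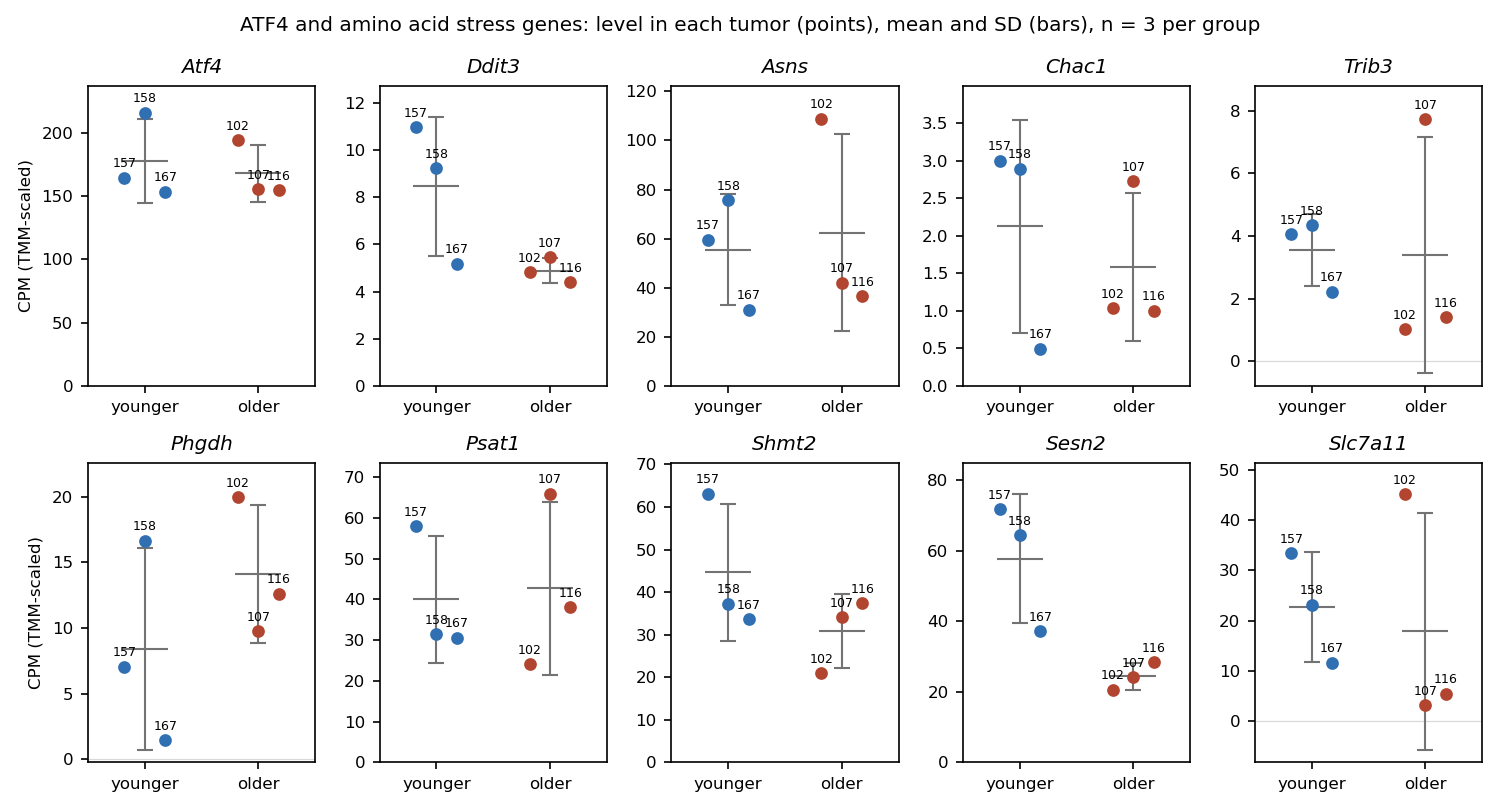
Level of each of the 10 genes in each tumor (points, CPM, TMM-scaled, linear axis) by age group, with the mean and SD of 3 tumors (grey bars). The Sesn2 panel is the only one in which the groups do not touch, at 20.7 to 28.4 CPM in tumors from older rats against 37.3 to 71.8 CPM in tumors from younger rats.

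Sesn2 was next set beside the whole table. Of 13139 genes tested, 0.00% passed an adjusted p of 0.05 (0 genes with edgeR and also 0 with limma-voom, 326 with DESeq2), and 8.59% (1128 genes) had an unadjusted p under 0.05, 3.29% lower and 5.30% higher in tumors from older rats. Among Atf4 and its targets 0 of 10 passed the adjusted threshold and 1, Sesn2, had an unadjusted p under 0.05. The age groups did not overlap for 12.1% of all genes tested, 5.58% lower and 6.51% higher in tumors from older rats, and for 1 of the 10. Sesn2 ranked 194 among all genes by p. By sign alone, 7 of the 10 genes were lower and 3 higher in tumors from older rats, and their median log2 fold change was -0.23, against -0.0039 over all genes tested. The median was 0.013 without tumor 116 and -0.058 without tumor 157.

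Atf4 itself showed little difference between tumors. It was at 194, 155 and 155 CPM in tumors 102, 107 and 116 from older rats and at 165, 216 and 154 CPM in tumors 157, 158 and 167 from younger rats. The ranges overlapped almost entirely, with the highest and the lowest tumor both in the younger group. Between age groups it differed by -0.08 in log2 (standard error, SE, 0.24; 95% interval -0.65 to 0.48, adjusted p = 0.969, edgeR), and the highest tumor was 1.41 times the lowest. The standard deviation of its log2 CPM over the 6 tumors, 0.21, was larger than that of only 9.88% of the genes tested. The 5 genes with at least 10 CPM whose centered profile lay nearest to that of Atf4 over these 6 tumors were Kat8 (a histone acetyltransferase), Napa (a membrane fusion adaptor), Washc5 (a subunit of the WASH complex on endosomes), Taf12 (a subunit of the TFIID transcription complex) and Rgp1 (a Golgi trafficking factor). Their root mean square distances from Atf4 were 0.046 to 0.075 log2 units, where the median of 10319 such genes was 0.411. The 9 target genes lay at distances from 0.431 (Ddit3) to 1.21 (Slc7a11), none nearer than that median. The median covers genes of at least 10 CPM, which Ddit3, Chac1 and Trib3 did not reach on average. Because Atf4 varied little, a gene's distance from it depends largely on that gene's own spread. These distances therefore cannot decide whether a target followed Atf4.

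Ddit3 encodes CHOP, the factor through which a prolonged stress response can end in cell death. It was at 4.82, 5.45 and 4.41 CPM in tumors 102, 107 and 116 and at 11.0, 9.23 and 5.18 CPM in tumors 157, 158 and 167. Tumors 157 and 158 exceeded all tumors from older rats, while tumor 167 lay within their range. The older minus younger log2 difference was -0.79 (SE 0.43, 95% interval -1.78 to 0.20, adjusted p = 0.712, edgeR). This difference ran from -1.05 without tumor 167 (unadjusted p = 0.0465, edgeR) to -0.57 without tumor 157 (unadjusted p = 0.315, edgeR). Trib3, a pseudokinase that CHOP and ATF4 induce and that feeds back on ATF4, had another order of tumors. Its levels were 1.03, 7.73 and 1.402 CPM in tumors 102, 107 and 116 and 4.07, 4.34 and 2.22 CPM in tumors 157, 158 and 167. Older tumor 107 was highest and older tumors 102 and 116 lowest, so the younger values lay inside the older range. Tumor 102 had 3 Trib3 counts, at the floor. Chac1, which encodes an enzyme that breaks down glutathione, was at 1.03, 2.73 and 1.001 CPM in tumors 102, 107 and 116 and at 3.01, 2.89 and 0.494 CPM in tumors 157, 158 and 167. With 2 to 17 counts per tumor, Chac1 was at or under the floor in tumors 102 and 167. The log2 fold changes were -0.05 for Trib3 (SE 0.78, adjusted p = 0.993, edgeR) and -0.43 for Chac1 (SE 0.77, adjusted p = 0.941, edgeR). Both 95% intervals spanned changes in either direction, from -1.87 to 1.77 for Trib3 and from -2.22 to 1.35 for Chac1. Without tumor 107 the Trib3 value was -1.51 (adjusted p = 0.636, edgeR), and with limma-voom on all tumors it was -0.52. That of Chac1 ran from -1.08 without tumor 107 to -0.12 without tumor 157.

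**Figure D2:**
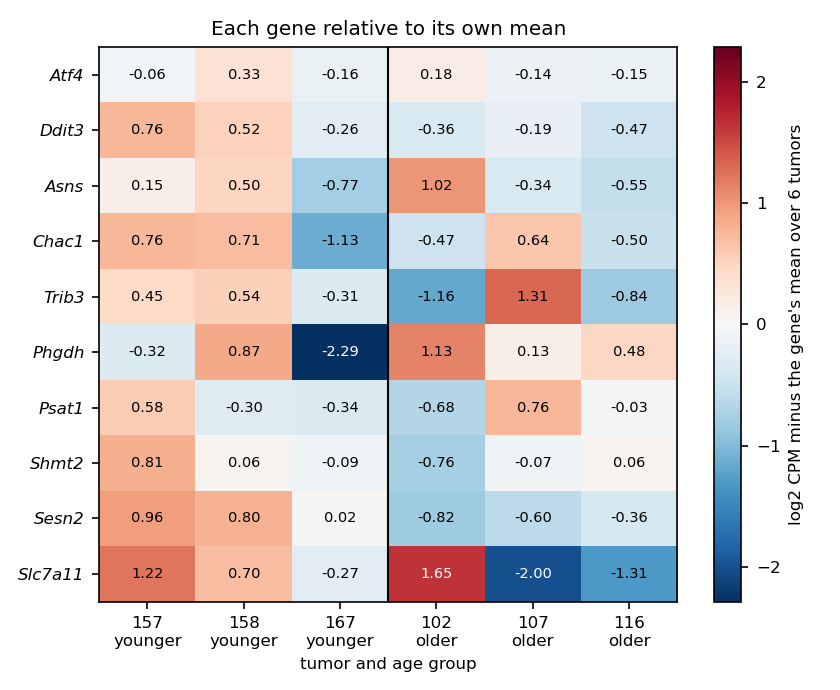
Log2 CPM (prior count 2) of each gene minus that gene's mean over the 6 tumors (color scale in log2 units), tumors in columns by age group. Tumors 157 and 158 are above the gene's mean for 8 and 9 of the 10 genes and tumor 167 for 1, while Slc7a11 ranges from -2.00 in tumor 107 to 1.65 in tumor 102, both from older rats.

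Among the 10 genes, 3 enzymes stand for serine and glycine synthesis. Phgdh catalyzes the first step from a glycolytic intermediate, Psat1 the next, and Shmt2 converts serine to glycine in mitochondria. Phgdh was at 19.97, 9.77 and 12.6 CPM in tumors 102, 107 and 116 and at 7.07, 16.6 and 1.48 CPM in tumors 157, 158 and 167. The low end of the younger group was tumor 167, with 6 counts. Its log2 difference by age was 0.73 (SE 0.74, 95% interval -0.99 to 2.45, adjusted p = 0.885, edgeR), and it ran from 0.24 without tumor 167 to 1.69 without tumor 158. Psat1 was at 24.1, 65.9 and 38.0 CPM in tumors 102, 107 and 116 and at 58.0, 31.5 and 30.6 CPM in tumors 157, 158 and 167. Both ends of the Psat1 range were in the older group, and the log2 fold change was 0.09 (SE 0.43, 95% interval -0.91 to 1.10, adjusted p = 0.979, edgeR). Shmt2 was at 21.0, 34.1 and 37.4 CPM in tumors 102, 107 and 116 and at 63.1, 37.3 and 33.6 CPM in tumors 157, 158 and 167. Tumor 157 was high and tumor 102 low, and the other 4 tumors lay between 33.6 and 37.4 CPM. Its log2 fold change was -0.53 (SE 0.35, 95% interval -1.35 to 0.29, adjusted p = 0.790, edgeR), and it was -0.32 without tumor 102 and -0.20 without tumor 157. The enzymes of this route did not share an order of tumors, since tumor 102 was highest for Phgdh and lowest for Psat1 and Shmt2.

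Asns, which makes asparagine from aspartate and glutamine, and Slc7a11, the cystine carrier xCT, both had their highest value in tumor 102. Asns was at 109, 42.0 and 36.4 CPM in tumors 102, 107 and 116 and at 59.6, 75.6 and 31.1 CPM in tumors 157, 158 and 167. Without tumor 102 the 2 remaining tumors from older rats lay within the range of the younger ones, and the log2 fold change went from 0.16 (SE 0.50, 95% interval -0.998 to 1.33, adjusted p = 0.972, edgeR) to -0.51. Slc7a11 was at 45.1, 3.18 and 5.41 CPM in tumors 102, 107 and 116 and at 33.4, 23.2 and 11.6 CPM in tumors 157, 158 and 167. Its highest tumor was 14.2 times its lowest, both from older rats, and the standard deviation of its log2 CPM, 1.45, exceeded that of 96.0% of the genes tested. The log2 fold change of -0.38 had a standard error of 0.93 and a 95% interval from -2.54 to 1.79 (adjusted p = 0.961, edgeR). Without tumor 102 it was -2.40, with an unadjusted p of 0.00442 and an adjusted p of 0.385 (edgeR). The sign turned without tumor 107 (0.12), 116 (0.059) or 157 (0.0068), and limma-voom on all 6 tumors gave -1.43 (unadjusted p = 0.125). The size of the Slc7a11 value therefore rests on the tumors and the tool used, and its sign on the tumors. The marker levels of tumor 102 given above stand beside these high values of Asns and Slc7a11, and their part in them was not tested.

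**Figure D3:**
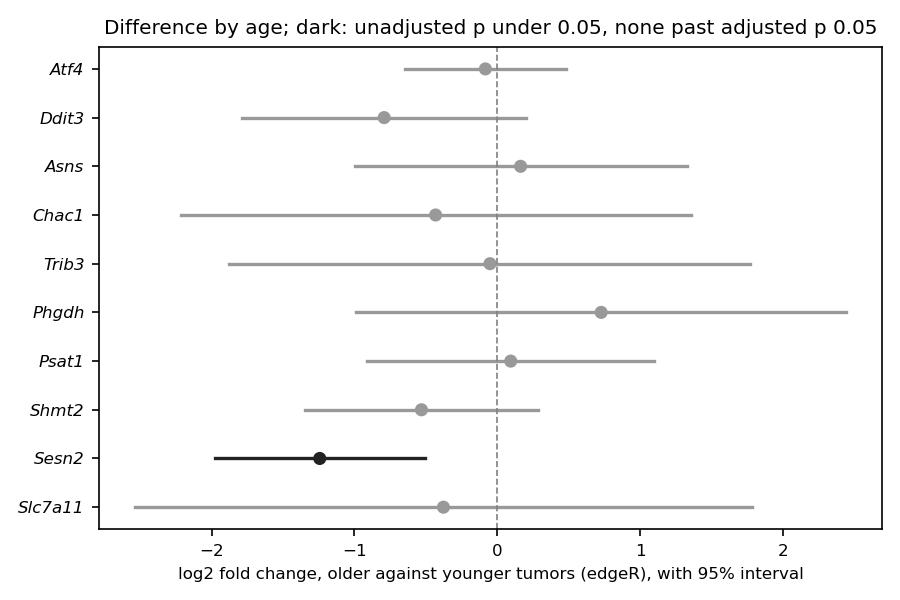
Log2 fold change of each gene, tumors from older against younger rats (points, edgeR), with its 95% interval (lines); dark marks an unadjusted p under 0.05. The interval of Sesn2, from -1.98 to -0.51, is the only one that leaves out 0, and those of Chac1, Trib3, Phgdh and Slc7a11 are the widest.

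Across tumors, younger tumors 157 and 158 were above a gene's own mean for 8 and 9 of the 10 genes, and younger tumor 167 for 1. Tumors 102, 107 and 116 were above the mean for 4, 4 and 2 genes. The highest value was in tumor 157 for 4 genes, tumor 102 for 3, tumor 107 for 2 and tumor 158 for 1, and the lowest value was in tumor 102 for 4, tumor 167 for 4, and tumors 107 and 116 for 1 each.

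The other genes of the response were described by 9 lists with 79 genes, of which 77 were tested. Of these, 0 passed an adjusted p of 0.05 with edgeR (1, Stc2, with DESeq2) and 11 had an unadjusted p under 0.05, 7 lower and 4 higher in tumors from older rats, which is 14.3% against 8.59% of all genes tested. Without tumor 157 only 4 of the 77 genes had such a p, against 5.85% of all genes in that fit. The 77 genes had a median log2 fold change of -0.25, with 55 lower and 22 higher by sign where 50.4% of all genes tested were lower. The age groups did not overlap for 13, against 12.1% of all genes tested. Of the 11 genes, Atf3, Stc2 and Vldlr had an unadjusted p under 0.05 with each tumor left out in turn, and the other 8 lost it in at least 1 such fit (edgeR). Genes whose promoter held the TGATGNAA core had a median of -0.25 (19 tested) and those with a promoter sequence and no match a median of -0.24 (57 tested), counting Chac1 and Trib3 among the former and the other 8 of the 10 genes among the latter.

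**Figure D4:**
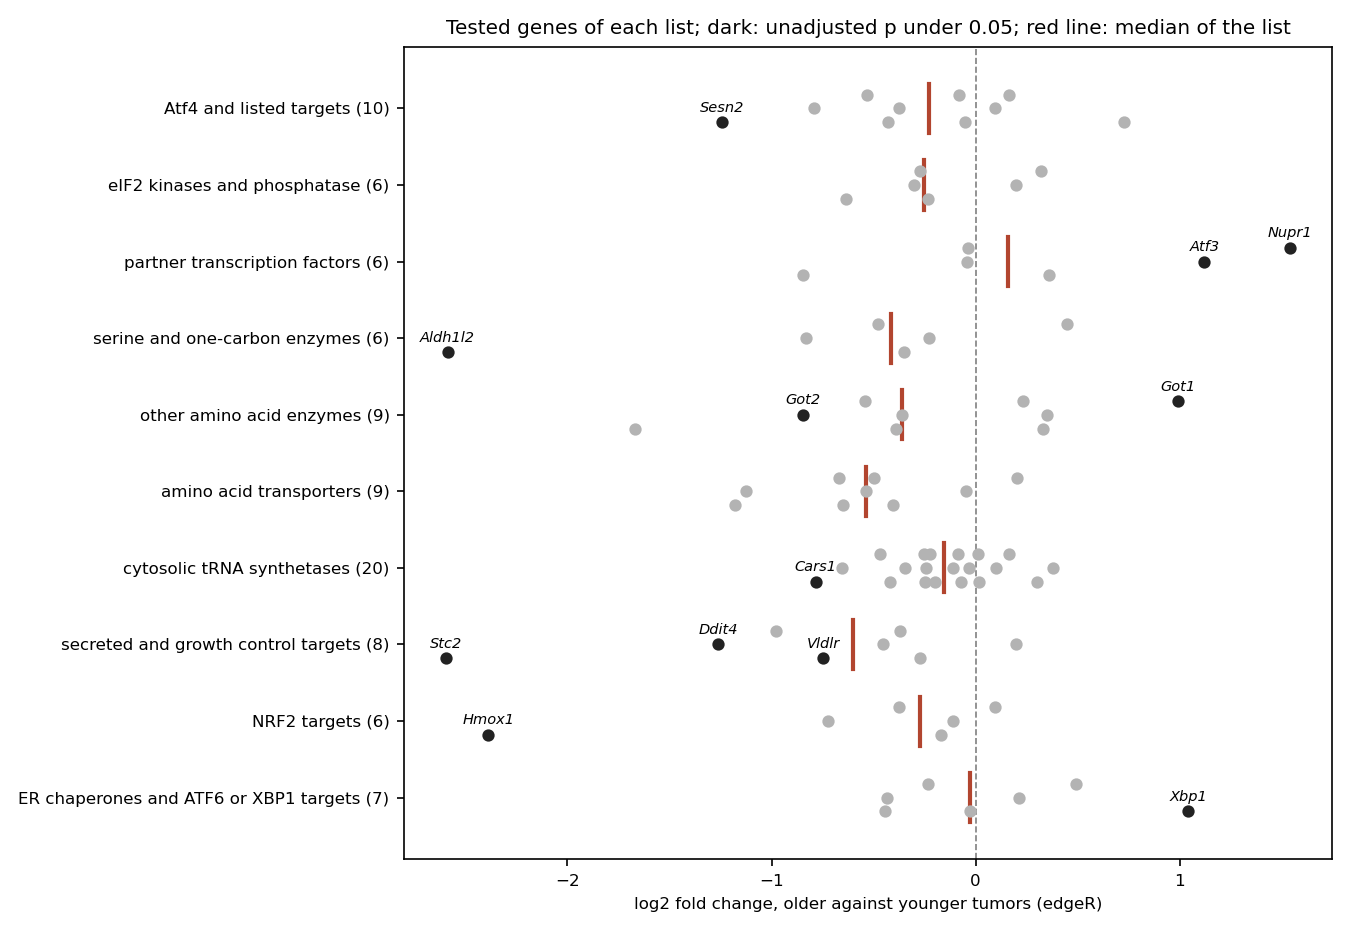
Log2 fold change of each tested gene of the lists, tumors from older against younger rats (points, edgeR; number tested in parentheses), with the list's median (red line); dark, named points have an unadjusted p under 0.05. The largest differences toward lower levels are those of Stc2, Aldh1l2 and Hmox1, between -2.59 and -2.39, and the largest toward higher levels that of Nupr1 at 1.54.

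Upstream of Atf4, 0 of the 6 tested genes for eIF2 kinases, eIF2 alpha and its phosphatase had an unadjusted p under 0.05, against 8.59% of all genes tested, and the age groups did not overlap for 2, against 12.1%. Eif2ak2 (PKR, which responds to double-stranded RNA) was at 44.1, 79.6 and 75.7 CPM in tumors 102, 107 and 116 and at 116, 86.1 and 108 CPM in tumors 157, 158 and 167. The groups did not overlap, with a log2 fold change of -0.63 (SE 0.29, adjusted p = 0.611, edgeR) that was -0.42 without tumor 102. Eif2ak3 (PERK, the sensor in the endoplasmic reticulum) did not overlap either, at 57.5 to 61.7 CPM against 64.2 to 82.1 CPM, with a log2 fold change of -0.30 (adjusted p = 0.807, edgeR). Eif2ak1 (HRI, the heme-regulated kinase) had a log2 fold change of 0.32 (adjusted p = 0.842, edgeR), and 0.081 without tumor 102. Ppp1r15a, which encodes the inducible phosphatase subunit GADD34, was listed at 0 counts in all tumors and was not tested.

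Among 6 factors that partner with or follow ATF4, 2 had an unadjusted p under 0.05, both higher in tumors from older rats, against 5.30% of all genes tested in that direction. Atf3, a bZIP repressor induced by many stresses, was at 56.5, 29.8 and 41.3 CPM in tumors 102, 107 and 116 and at 14.7, 21.2 and 22.7 CPM in tumors 157, 158 and 167. All tumors from older rats were above all tumors from younger rats, with a log2 fold change of 1.12 (SE 0.33, unadjusted p = 0.00987, adjusted p = 0.364, edgeR). Nupr1, a small stress-induced chromatin protein, was at 196, 54.3 and 55.5 CPM against 31.8, 36.4 and 36.5 CPM. Its groups did not overlap, and tumor 102 stood far above the rest. The log2 fold change of 1.54 (SE 0.52, unadjusted p = 0.0187, adjusted p = 0.432, edgeR) was 0.65 without tumor 102. Atf5, a bZIP factor that stress also induces through translation, had a log2 fold change of -0.85 (adjusted p = 0.713, edgeR) with overlapping groups. This value was -0.52 without tumor 102, -0.56 without tumor 158 and -1.24 without tumor 107 (unadjusted p = 0.0426, edgeR). The age groups did not overlap for 3 of the 6 factors, all higher in tumors from older rats, against 6.51% of all genes tested. Beside Atf3 and Nupr1 this held for Cebpg, at 99.3 to 129 CPM against 74.4 to 95.9 CPM. Its log2 fold change was 0.36 (SE 0.23, adjusted p = 0.775, edgeR).

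Of 6 other serine and folate enzymes 1 had an unadjusted p under 0.05 (16.7%, against 8.59% of all genes tested). Aldh1l2, the mitochondrial enzyme that oxidizes formyl folate, was at 1.03, 3.86 and 4.21 CPM in tumors 102, 107 and 116 and at 39.6, 11.9 and 4.94 CPM in tumors 157, 158 and 167. The groups did not overlap, but tumor 167 lay close to the older tumors and tumor 102 had a count at the floor. The fitted log2 difference was -2.59 (SE 0.84, unadjusted p = 0.0159, adjusted p = 0.412, edgeR), and -1.45 without tumor 157. Mthfd1l and Shmt1, of the mitochondrial and cytosolic folate routes, had log2 fold changes of -0.83 (adjusted p = 0.727, edgeR; -0.54 without tumor 102 and -0.51 without tumor 157) and 0.45 (adjusted p = 0.808, edgeR; 0.21 without tumor 158).

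Of 9 other amino acid enzymes 2 had an unadjusted p under 0.05 (22.2%, against 8.59% of all genes tested), in opposite directions. Got1, the cytosolic aspartate aminotransferase, was at 53.7, 66.8 and 31.2 CPM in tumors 102, 107 and 116 and at 26.7, 22.8 and 26.9 CPM in tumors 157, 158 and 167, and Got2, its mitochondrial counterpart, at 70.6, 139 and 139 CPM and at 239.7, 141 and 246 CPM. Neither gene overlapped between age groups. Log2 fold changes were 0.99 for Got1 (SE 0.32, adjusted p = 0.419, edgeR) and -0.85 for Got2 (SE 0.35, adjusted p = 0.568, edgeR). Cbs, the first enzyme from homocysteine to cysteine, was at 5.51 to 26.8 CPM and 15.9 to 88.6 CPM, with a log2 fold change of -1.67 (adjusted p = 0.595, edgeR).

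Amino acid carriers of the plasma membrane were lower by sign for 8 of 9 tested genes, with a median of -0.54, where 50.4% of all genes tested were lower. Of the 9, 0 had an unadjusted p under 0.05 (8.59% of all genes tested) and 0 had groups that did not overlap (12.1% of all genes tested). Slc1a5 (a glutamine carrier), Slc6a9 (a glycine carrier) and Slc7a5 (the leucine exchanger LAT1) had log2 fold changes of -1.18 (adjusted p = 0.636, edgeR), -1.12 (adjusted p = 0.636, edgeR) and -0.65 (adjusted p = 0.790, edgeR). Without tumor 157, which was highest for each of these carriers, the values were -0.69, -0.44 and -0.088, and without tumor 158 Slc1a5 and Slc6a9 had unadjusted p-values of 0.0140 and 0.0199 (edgeR). Without tumor 167 Slc7a5 was at -0.999 with an unadjusted p of 0.0193 (edgeR). Slc3a2, the heavy chain that Slc7a11 and Slc7a5 need to reach the membrane, had a log2 fold change of 0.20 (adjusted p = 0.928, edgeR).

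Of 20 cytosolic tRNA synthetases 1 had an unadjusted p under 0.05, which is 5% against 8.59% of all genes tested, and the median was -0.16. Cars1, which loads cysteine, was at 29.3, 34.5 and 41.7 CPM in tumors 102, 107 and 116 and at 73.9, 71.8 and 36.0 CPM in tumors 157, 158 and 167. As for Ddit3, tumor 167 lay within the older range, and the log2 fold change was -0.78 (SE 0.33, adjusted p = 0.577, edgeR). Sars1 (serine) and Aars1 (alanine) had log2 fold changes of -0.42 (adjusted p = 0.677, edgeR) and -0.66 (adjusted p = 0.777, edgeR; -0.38 without tumor 102 and -0.36 without tumor 157), and only Sars1 did not overlap, at 66.8 to 78.4 CPM against 85.4 to 107 CPM.

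Secreted factors and growth regulators held 3 of 8 genes with an unadjusted p under 0.05, all lower in tumors from older rats, which is 37.5% against 3.29% of all genes tested in that direction. The list is short, and it was chosen with earlier results of these data known. Stc2, a secreted glycoprotein that inhibits a protease of the insulin-like growth factor system, was at 5.16, 2.5002 and 13.4 CPM in tumors 102, 107 and 116 and at 66.7, 18.5 and 44.2 CPM in tumors 157, 158 and 167. The groups did not overlap, and the log2 fold change was -2.59 (SE 0.69, unadjusted p = 0.00618, adjusted p = 0.341, edgeR), from -3.52 without tumor 116 to -2.14 without tumor 157. Vldlr, a lipoprotein receptor, was at 50.3 to 56.1 CPM against 76.8 to 105 CPM, with a log2 fold change of -0.75 (SE 0.22, adjusted p = 0.368, edgeR). Ddit4 encodes REDD1, which like sestrin 2 holds back mTORC1. It was at 72.0, 25.0 and 33.0 CPM in tumors 102, 107 and 116 and at 119, 137 and 53.8 CPM in tumors 157, 158 and 167, so that only tumor 102 reached into the younger range. Its log2 fold change was -1.26 (SE 0.49, adjusted p = 0.525, edgeR). Sesn1 and Sesn3, the relatives of Sesn2, had log2 fold changes of 0.20 (adjusted p = 0.937, edgeR) and -0.98 (adjusted p = 0.703, edgeR). The Sesn3 difference rests mainly on tumor 158, at 681 CPM. Tumors 157 and 167 were at 219 and 170 CPM, against 169 to 198 CPM in tumors from older rats.

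Neighboring stress programs were read for Slc7a11 and for PERK. Of 6 targets of NRF2, the oxidant-sensing factor that also drives Slc7a11, 1 had an unadjusted p under 0.05 (16.7%, against 8.59% of all genes tested). Hmox1, which breaks down heme, was at 137, 16.4 and 29.4 CPM in tumors 102, 107 and 116 and at 571, 333 and 47.9 CPM in tumors 157, 158 and 167. As for Slc7a11, tumor 102 was the highest of the older group and tumor 167 the lowest of the younger group. The log2 fold change was -2.39 (SE 1.02, adjusted p = 0.578, edgeR), from -3.79 without tumor 102 to -1.66 without tumor 157, and its unadjusted p was above 0.05 without tumor 107, 116, 157 or 158. Gclc and Txnrd1, of glutathione synthesis and thioredoxin reduction, had log2 fold changes of -0.73 (adjusted p = 0.801, edgeR; -0.097 without tumor 158) and -0.17 (adjusted p = 0.942, edgeR). Of 7 genes from other arms of the unfolded protein response 1 had an unadjusted p under 0.05 (14.3%, against 8.59% of all genes tested). Xbp1, a factor of secretory cells, was at 1366, 711 and 611 CPM in tumors 102, 107 and 116 and at 311, 517 and 477 CPM in tumors 157, 158 and 167, a log2 fold change of 1.04 (SE 0.40, adjusted p = 0.508, edgeR) that was 0.59 without tumor 102 (unadjusted p = 0.119). Herpud1, which serves degradation of misfolded proteins, and Hsp90b1, a chaperone, had log2 fold changes of 0.49 (adjusted p = 0.629, edgeR) and -0.45 (adjusted p = 0.848, edgeR; -0.21 without tumor 102 or 158), and the groups did not overlap for Herpud1.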

How the data were processed

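By the study's methods and the submitters' processing notes, the authors checked reads with FastQC 0.11.7, trimmed adapters with Trimmomatic 0.38, aligned reads with STAR 2.7.9a, marked duplicates with Picard 2.18.12 and counted reads per gene with HTSeq 0.13.5. The read counts were deposited without normalization, and the submitters' processing notes name mRatBN7.2. The labels name polyA RNA whereas the protocol names removal of ribosomal RNA, so the library type is uncertain. Whether marked duplicates were counted and whether strand was used are not given in the sources used here. Columns were matched to tumors by tumor ID, and 0 were left unused. The 4367 rows without a name, with 2.17% to 3.64% of the counts per tumor, were left out.

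Named rows entered edgeR 4.0.16 (R 4.3.3): filterByExpr by age group, TMM, and the quasi-likelihood test of older against younger tumors without covariates, with Benjamini-Hochberg adjustment over all 13139 genes tested and a threshold of 0.05. Standard errors follow from the fold change and its F statistic, and a prior count of 2 was added for log2 CPM. Tumors were taken to come from separate rats, as the study has it. Alternatives included DESeq2 1.42.0 and limma-voom (limma 3.58.1). The test was checked on simulated data.

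The genes and lists were chosen with earlier results of these data known. Of each further list the 3 genes with the smallest p were named with values. Slc3a2, Sesn1, Sesn3 and Ppp1r15a were added for their role after values were seen, and Cebpg because its age groups did not overlap. Further genes were named for their promoter windows alone. For Atf4, the 5 genes of at least 10 CPM with the nearest centered log2 CPM profile were named. Lengths and coordinates of the files' assembly were not used here. Not all promoter windows with a match are reported here.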

Additional observations from a re-analysis of the deposited data

How the results depend on the processing

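No paired analysis was possible because tumor numbers differ between older and younger rats and so pair nothing. With DESeq2's Wald test 326 of all genes, 1 of the 10 genes (Sesn2) and 1 of the 77 further genes (Stc2) passed an adjusted p of 0.05, against 0, 0 and 0 with edgeR. These counts stayed 0 under the other 7 settings with all tumors, 1 of them (keeping rows without a name) chosen after seeing the data, and with each tumor left out. The median log2 fold change of the 10 genes, -0.23, ran from -0.49 to 0.013 with 1 tumor left out, the last without older replicate 116. With limma-voom on all tumors this median was -0.39. With at least 10 counts in every tumor 7 of the 10 genes could be tested, without Chac1, Trib3 and Phgdh, and their median was -0.40. Log2 fold changes of 5 of the 10 genes kept their sign in every fit that tested them (Ddit3, Chac1, Phgdh, Shmt2 and Sesn2). The other 5 turned sign in some fits on 5 tumors, over which Atf4 ran from -0.21 to 0.084, Asns from -0.51 to 0.46, Trib3 from -1.51 to 0.33, Psat1 from -0.36 to 0.46 and Slc7a11 from -2.40 to 0.12. Txnrd1 ran from -0.33 to 0.13. The causes were not tested. A prior count of 0.5 moved differences in mean log2 CPM by at most 0.10. Counts were low for Chac1 and Trib3, at 2 and 3 in their lowest tumors. The part of depth in their wide intervals was not tested.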
